A study of Mus musculus with 4 samples.

Results

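The genes described here encode the subunits of the transcription factor NF-kB and the IkB proteins that bind them. They were followed in mouse B lymphocytes of 4 groups, with 1 Affymetrix array per group. The group of stimulated Tilcara cells and the group of non-stimulated Tilcara cells came from C57BL/6 Tilcara mice, labelled as a PKCbeta mutant model. The group of stimulated wild-type cells and the group of non-stimulated wild-type cells came from wild-type C57BL/6 mice. Stimulated cells received 10 ng/mL of the phorbol ester PMA, which activates protein kinase C, and 1 µM of the calcium ionophore A23187 for 4 hours. All cells came from spleens, thymi and lymph nodes and were sorted on B220 (CD45R), which B cells carry on their surface. The sources used here do not give the nature of the Tilcara mutation, the age or sex of the mice, or how many mice stand behind an array. Of the 10 symbols chosen by name, 9 had a probe set mapped to exactly 1 symbol, and each of these had a single probe set: Nfkb2, Rel, Rela, Relb, Nfkbia, Nfkbib, Nfkbie, Nfkbiz and Nfkbid. Nfkb1 is not analysed here. The 9 genes stood among 12456 genes whose highest signal reached 3.83, the median of all named values, and none of the 9 lay below that floor in any array.

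NF-kB factors are dimers of Rel-family proteins. In resting cells the classical IkB proteins hold these dimers in the cytoplasm. A kinase complex, IKK, marks IkB for destruction when a receptor signals, and in B cells the antigen receptor reaches IKK through PKCbeta and adaptor proteins that include BCL10 and MALT1. Several IkB genes are themselves NF-kB targets, which makes the system a feedback loop. The atypical IkB proteins encoded by Nfkbiz and Nfkbid act in the nucleus, where they can help or repress particular target genes.

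Promoters of these genes are shown because kB sites, the DNA elements that NF-kB binds, lie in several of them. RefSeq promoter windows (GRCm38.p6), each with 250 bases before and 50 after an annotated start, existed in the table used for 7 of the 9 genes, in 11 windows. Relb and Nfkbiz had no window in it. The windows were searched on both strands for the kB consensus motif, a G-rich stretch followed by a C-rich one, and matches are in capitals; overlapping matches merge into 1 run. Positions below are of the leftmost base of a match, with the annotated start as 1.
Nfkbia (chr12:55492598-55492897, minus strand): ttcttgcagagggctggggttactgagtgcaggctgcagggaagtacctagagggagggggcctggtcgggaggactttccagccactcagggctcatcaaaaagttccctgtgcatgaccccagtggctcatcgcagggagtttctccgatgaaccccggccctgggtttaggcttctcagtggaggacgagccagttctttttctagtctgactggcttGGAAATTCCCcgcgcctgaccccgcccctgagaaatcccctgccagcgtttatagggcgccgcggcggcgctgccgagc
Nfkbid, second of 3 windows (chr7:30422156-30422455, plus strand): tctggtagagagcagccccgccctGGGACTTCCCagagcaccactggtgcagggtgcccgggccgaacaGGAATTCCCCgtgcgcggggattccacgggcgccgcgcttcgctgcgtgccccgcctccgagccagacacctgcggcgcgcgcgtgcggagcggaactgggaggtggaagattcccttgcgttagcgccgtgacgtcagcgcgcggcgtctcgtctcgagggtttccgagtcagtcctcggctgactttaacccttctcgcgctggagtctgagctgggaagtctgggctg
Nfkb2, first of 3 windows (chr19:46304487-46304786, plus strand): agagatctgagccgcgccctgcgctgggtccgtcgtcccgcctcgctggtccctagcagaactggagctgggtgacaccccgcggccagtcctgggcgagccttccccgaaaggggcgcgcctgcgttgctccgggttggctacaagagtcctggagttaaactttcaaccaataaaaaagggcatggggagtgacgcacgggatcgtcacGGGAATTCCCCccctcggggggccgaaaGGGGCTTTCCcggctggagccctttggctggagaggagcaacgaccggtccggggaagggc
Rel (chr11:23770920-23771219, minus strand): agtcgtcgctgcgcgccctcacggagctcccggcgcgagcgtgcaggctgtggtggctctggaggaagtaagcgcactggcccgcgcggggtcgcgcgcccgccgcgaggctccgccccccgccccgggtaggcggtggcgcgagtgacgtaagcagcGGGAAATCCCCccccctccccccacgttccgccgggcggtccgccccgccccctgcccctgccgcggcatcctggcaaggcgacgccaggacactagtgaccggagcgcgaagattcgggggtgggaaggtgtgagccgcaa
Nfkbib (chr7:28766595-28766894, minus strand): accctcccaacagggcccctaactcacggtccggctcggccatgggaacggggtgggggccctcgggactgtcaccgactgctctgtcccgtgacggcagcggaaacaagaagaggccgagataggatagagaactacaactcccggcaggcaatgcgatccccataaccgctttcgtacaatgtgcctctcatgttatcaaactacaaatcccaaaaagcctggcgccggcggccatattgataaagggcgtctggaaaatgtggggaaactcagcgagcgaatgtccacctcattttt

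The motif was present in the windows of 5 of the 7 genes. It lay at −29 in Nfkbia, as GGAAATTCCC, and at −226 and −181 in the second window of Nfkbid. The first Nfkb2 window held overlapping matches at −39 and −38 and another at −11. Its second window held GGAATGTCCC at −236 and GGGACTTTCC at 11, a base run that the last window, which overlaps it, also contains. In Rel 2 overlapping matches lay at −92 and −91, and Nfkbie had GGGGGATTCC at −106. Rela, Nfkbib and the other 2 Nfkbid windows had no match, so Nfkbib is shown as a window without capitals. The motif was found in 8.46% of all 32851 windows, and in 12.1% of the 9738 genes used that had a window. A match is a string of letters and was not tested for binding here.

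With stimulation 4 of the 5 IkB genes read higher in Tilcara, where Nfkbia read lower, and all 5 read higher in wild type. In Tilcara cells 1 of the 9 genes, Nfkbib, was at least 2-fold higher with stimulation, against 11.9% of all genes used. The Tilcara medians of the log2 difference were 0.56 for the 5 IkB genes, −0.16 for the 4 subunit genes and 0.04 for all genes used. In wild-type cells 4 of the 9, the IkB genes Nfkbib, Nfkbiz, Nfkbid and Nfkbie, were at least 2-fold higher, against 13.4% of all genes used, and no subunit gene was. Nfkbie was under 2-fold after cyclic loess (0.84), and Rel, a subunit gene, passed 2-fold with housekeeping centring (1.04). The wild-type medians were 1.26 for the IkB genes, 0.21 for the subunit genes and 0.03 for all genes used. All 9 genes read higher in the stimulated wild-type array than in the non-stimulated one, against 51.7% of the genes used, although the difference of Rela was −0.19 after cyclic loess. With 1 array per group these differences have no replicate check.

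**Figure D1:**
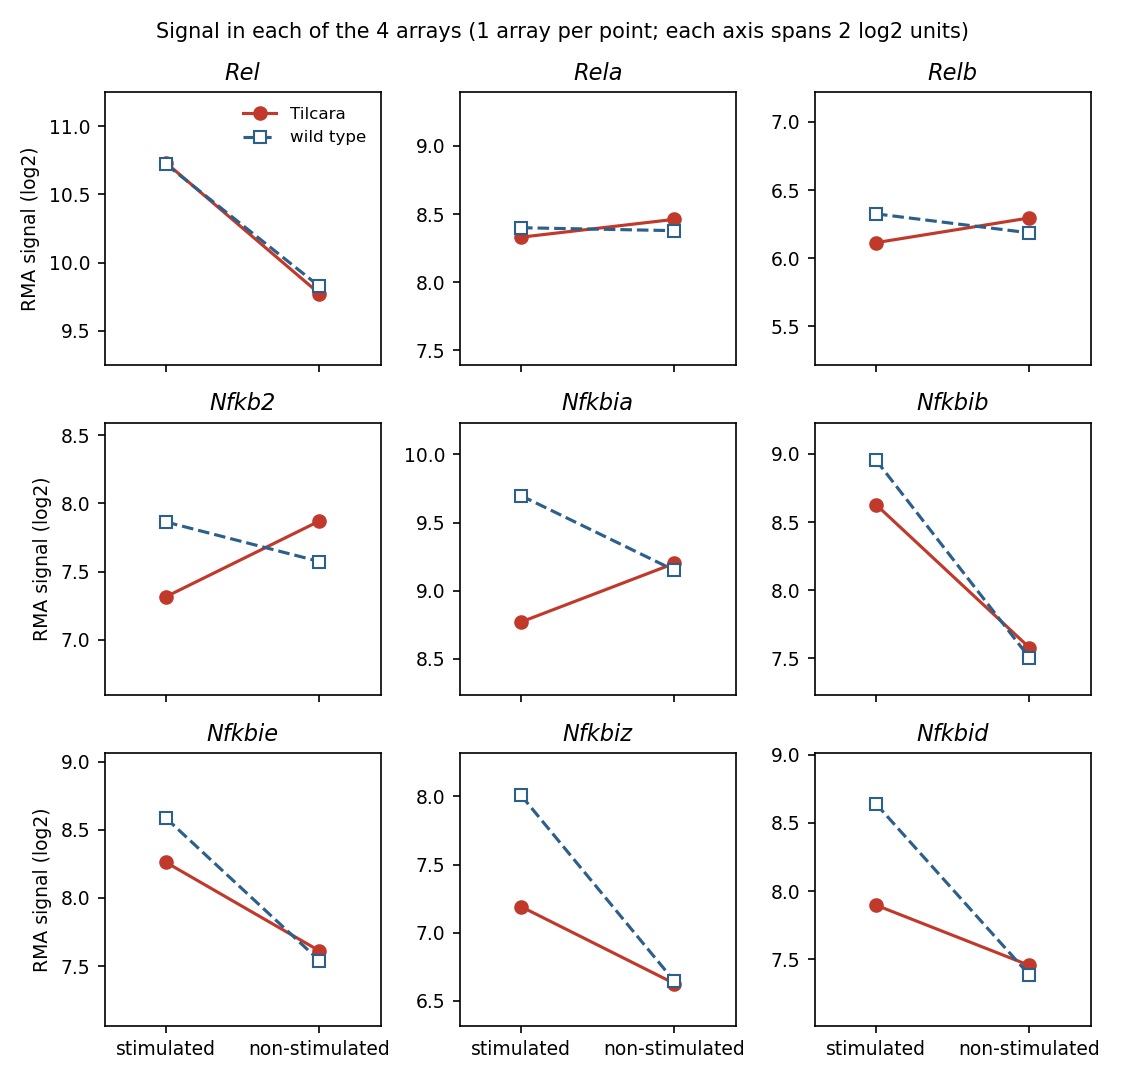
RMA signals (log2, vertical axes) of the 9 genes in stimulated and non-stimulated cells (horizontal axes), with Tilcara as filled circles and wild type as open squares, 1 array per point and each vertical axis spanning 2 log2 units. The genotypes nearly coincide without stimulation in all panels but Nfkb2, and with stimulation the Tilcara points of Nfkbia, Nfkbiz and Nfkbid lie lowest relative to wild type, at −0.93, −0.82 and −0.74.

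Among the subunits, Rel showed the clearest response. It encodes c-Rel, the subunit most typical of lymphocytes, which carries its own activation domain. Its signal was 10.73 in stimulated and 9.77 in non-stimulated Tilcara cells, and 10.72 in stimulated and 9.82 in non-stimulated wild-type cells. Both stimulated arrays were high and both non-stimulated arrays low, by 1.95-fold in Tilcara and 1.86-fold in wild type. Over both genotypes Rel rose (limma, log2 change 0.93, SE 0.15, adjusted p = 0.00914).

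Rela and Relb stayed close to level. Rela encodes p65, the activating partner in the classical p50–p65 dimer, and read 8.33 in stimulated and 8.46 in non-stimulated Tilcara cells, and 8.40 in stimulated and 8.38 in non-stimulated wild-type cells. RelB pairs mainly with p52 in the alternative pathway. Relb read 6.11 in stimulated and 6.30 in non-stimulated Tilcara cells, and 6.33 in stimulated and 6.19 in non-stimulated wild-type cells. The 4 arrays of each gene were close together, with the widest gap, −0.21, between stimulated Tilcara and stimulated wild type in Relb. Responses at least as large as that of Relb were seen in 78.0% of all genes used in Tilcara and 84.9% in wild type. The limma fit called neither (log2 changes −0.05 and −0.02, SE 0.15 and 0.16, adjusted p = 0.799 and 0.931).

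Nfkb2 read lower with stimulation in Tilcara and higher with it in wild type. It encodes p100, which acts as an IkB-like inhibitor until it is processed to the p52 subunit. Its signal was 7.32 in stimulated and 7.87 in non-stimulated Tilcara cells, a difference of −0.56. In wild type it was 7.86 with stimulation and 7.57 without, a difference of 0.29, which was 0.09 after cyclic loess. Responses at least as large were seen in 46.7% of all genes used in Tilcara and 69.7% in wild type. Stimulated Tilcara was the lowest of the 4 arrays, and non-stimulated Tilcara and stimulated wild type were nearly equal at the top. The difference between the responses was −0.85, and 7.02% of all genes used had one at least as large in either direction.

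Nfkbia, which encodes IkB alpha, the fast-turning classical inhibitor and a textbook NF-kB target, had the largest difference between the genotypes' responses among the 9 genes. It read 8.77 in stimulated and 9.20 in non-stimulated Tilcara cells, and 9.70 in stimulated and 9.15 in non-stimulated wild-type cells. Stimulated wild type was the highest array and stimulated Tilcara the lowest. The response was −0.43 in Tilcara and 0.55 in wild type, so that the Tilcara response minus the wild-type response was −0.98. In either direction, 4.21% of all genes used had a difference of at least that size. The limma fit, which averages both responses, gave Nfkbia a stimulation change of 0.06 (SE 0.27, adjusted p = 0.883).

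The other classical inhibitors responded in the same direction in both genotypes. Nfkbib encodes IkB beta, and it read 8.63 in stimulated and 7.58 in non-stimulated Tilcara cells, and 8.96 in stimulated and 7.51 in non-stimulated wild-type cells. Nfkbie encodes IkB epsilon, and it read 8.26 in stimulated and 7.61 in non-stimulated Tilcara cells, and 8.59 in stimulated and 7.54 in non-stimulated wild-type cells. For both genes each stimulated array lay above each non-stimulated array. Nfkbib was 2.07-fold higher with stimulation in Tilcara and 2.73-fold higher in wild type. Nfkbie was 1.57-fold higher in Tilcara and 2.06-fold higher in wild type. Both rose in the limma fit, Nfkbib by 1.25 (SE 0.17, adjusted p = 0.00659) and Nfkbie by 0.85 (SE 0.17, adjusted p = 0.0187).

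The nuclear IkB genes had smaller responses in Tilcara. Nfkbiz, for IkB zeta, an inducible coactivator of secondary NF-kB targets, read 7.19 in stimulated and 6.63 in non-stimulated Tilcara cells, and 8.01 in stimulated and 6.64 in non-stimulated wild-type cells. Nfkbid, for IkBNS, which mice need for normal marginal zone and B-1 B cells, read 7.90 in stimulated and 7.45 in non-stimulated Tilcara cells, and 8.64 in stimulated and 7.38 in non-stimulated wild-type cells. In each gene the non-stimulated arrays were nearly equal, stimulated Tilcara lay between, and stimulated wild type stood highest. The stimulated signal was 1.48-fold above the non-stimulated one in Tilcara and 2.58-fold in wild type for Nfkbiz, and 1.36-fold in Tilcara and 2.39-fold in wild type for Nfkbid. For Nfkbiz, 46.2% of all genes used had a response at least as large in Tilcara and 18.9% in wild type. For Nfkbid the shares were 54.1% in Tilcara and 21.4% in wild type. Over both genotypes both rose, Nfkbiz by 0.96 (limma, SE 0.24, adjusted p = 0.0319) and Nfkbid by 0.85 (SE 0.24, adjusted p = 0.0466). These 2 calls are the least secure: the adjusted p in limma was 0.0506 for Nfkbiz and 0.0737 for Nfkbid without a filter on low signals, and 0.069 for Nfkbid after cyclic loess.

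**Figure D2:**
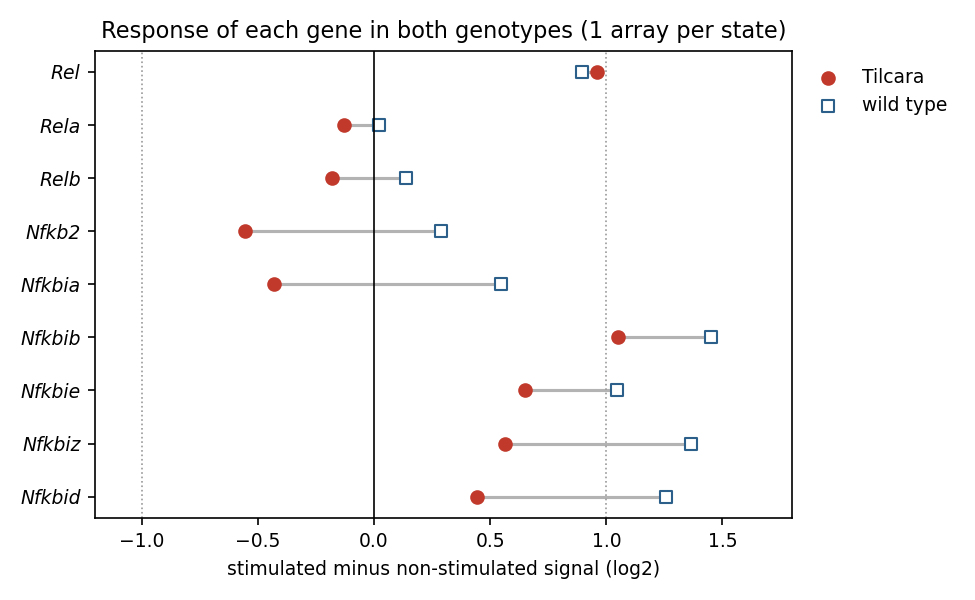
Stimulated minus non-stimulated signal (log2, horizontal axis) of each of the 9 genes, with Tilcara as filled circles and wild type as open squares, 1 array per state. The Tilcara value lies left of the wild-type value for every gene but Rel, and for Nfkb2, Nfkbia, Rela and Relb the values lie on opposite sides of 0; dotted lines mark 2-fold.

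Counted over the limma fit, 5 of the 9 genes rose with stimulation (Rel, Nfkbib, Nfkbie, Nfkbiz and Nfkbid) and none fell, against 22% of all genes used that rose and 22.8% that fell. This fit treats the 2 genotypes as repeat samples of a state, and its 1 residual degree of freedom comes from how far their responses differ. A gene whose response differs by genotype therefore has a larger error in it. The SE was 0.27 for Nfkbia, 0.25 for Nfkb2 and 0.24 for both Nfkbiz and Nfkbid, against 0.15 for Rel.

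Without stimulation these genes, like most genes used, differed little between the genotypes. None of the 9 differed by 1.5-fold, which is near the shares of all genes used. Of those, 3.32% were at least 1.5-fold higher in Tilcara and 3.39% were at least 1.5-fold lower. Nfkb2 differed most, at 7.87 in Tilcara and 7.57 in wild type, 1.23-fold higher in Tilcara, and 28.6% of all genes used differed by at least as much. The other 8 genes differed by between −0.05 and 0.11. The signs of Rel, Nfkbia, Nfkbiz and Nfkbid in this comparison changed under at least 1 other scaling of the arrays.

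With stimulation 8 of the 9 genes read lower in Tilcara than in wild type, against 47.9% of all genes used. Rel was the exception, at 10.73 in Tilcara and 10.72 in wild type, and its sign changed to below 0 under cyclic loess and under housekeeping centring. No gene of the 9 reached 2-fold lower, against 0.747% of all genes used. Nfkbia was 1.90-fold lower, Nfkbiz 1.76-fold and Nfkbid 1.67-fold, which makes 3 of 9 at least 1.5-fold lower, against 3.65% of all genes used. Differences as large as theirs in either direction were seen in 2.16%, 3.31% and 4.43% of all genes used. Nfkb2 was 1.46-fold lower, Nfkbib 1.25-fold and Nfkbie 1.25-fold. The median over the 9 genes was −0.33, over the 5 IkB genes −0.74, over the 4 subunit genes −0.14, and over all genes used 0.01.

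Limma's genotype effect, which pools both states, called none of the 9 genes and none of the 12456 genes. At an unadjusted p under 0.05 it had 667 genes, 5.35% of all, and none of the 9. Nfkbia had the largest genotype coefficient of the 9 (limma, −0.44, SE 0.27, adjusted p = 0.866). The genotype differences in stimulated cells are differences between single arrays with no test of their own, and array and group cannot be told apart.

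The responses set side by side show the same genes from the other direction, since they share the stimulated arrays with the comparison above. The Tilcara response was below the wild-type response in 8 of 9 genes, against 49.9% of all genes used, and Rel, with 0.96 in Tilcara and 0.90 in wild type, was the exception. It was at least 1.5-fold below in Nfkbia, Nfkb2, Nfkbid and Nfkbiz, 4 of 9 against 8.05% of all genes used. The median difference between responses was −0.80 over the IkB genes, −0.24 over the subunit genes and 0.00 over all genes used, whose central 95% ran between −0.89 and 0.98. Nfkbia alone lay outside that range. Nfkbia, Nfkb2, Relb and Rela, 4 of 9, read lower with stimulation in Tilcara and higher with it in wild type, against 8.41% of all genes used. The count of 8 of 9 was the same under median centring, cyclic loess and housekeeping centring. The mean over probe sets and no filter on low signals could not change it. Each of the 9 genes had a single probe set and none lay below the floor.

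**Figure D3:**
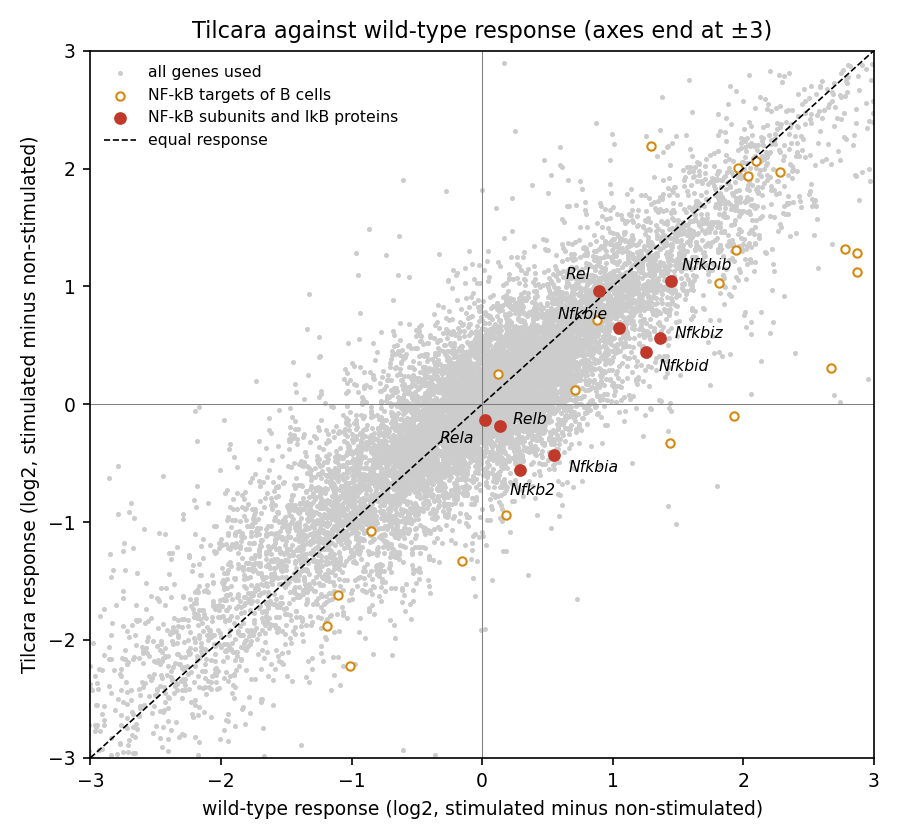
Tilcara response against wild-type response (log2, stimulated minus non-stimulated) for the 12456 genes used (grey), the listed NF-kB targets (open circles) and the 9 NF-kB and IkB genes (filled, named), with axes ending at 3 on either side. All of the 9 but Rel lie below the dashed line of equal response, and Nfkbia and Nfkb2 lie right of 0 and below 0. Genes beyond the axis ends are not shown, among them the targets Il10, Ccl3, Ccl4, Gadd45b, Ltb and Tnfsf4.

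Genes with patterns most like those of 2 members over the 4 arrays were found by the Euclidean distance between signals centred on each gene's mean. For Nfkbia, the gene with the largest difference between responses, the 5 nearest were Gas2l3, Gm9258, Prkca, Mllt6 and Sh3bp5, at distances of 0.05 to 0.12. Gas2l3 and Gm9258 were above the floor in the stimulated wild-type array alone, at 3.96 and 4.17, so their likeness rests on signals near background. Prkca, which encodes PKC alpha, read 4.84 in stimulated and 5.14 in non-stimulated Tilcara cells, and 5.70 in stimulated and 5.14 in non-stimulated wild-type cells. For Nfkbib, which had the largest wild-type response of the 9, they were Larp7, Zdhhc13, Mob1b, Ube2q2 and St13, at 0.04 to 0.08. With 4 arrays such likeness describes only these values.

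Upstream of the NF-kB proteins, 5 of 21 measured kinase and adaptor genes rose with stimulation and 7 fell (limma, adjusted p under 0.05), against 22% of all genes used that rose and 22.8% that fell, so the share that rose was near that of all genes. Prkcb, which encodes PKCbeta itself, read 7.27 in stimulated and 9.39 in non-stimulated Tilcara cells, and 7.28 in stimulated and 9.42 in non-stimulated wild-type cells, and it fell. Because the labels name a mutant and no deletion, this level does not check the genotype. Ikbkb, for the catalytic IKK beta, also fell, by 1.12 on the log2 scale (limma, SE 0.16, adjusted p = 0.00655), as did Map3k14, for the NIK kinase of the alternative pathway, by 0.90 (SE 0.18, adjusted p = 0.0185). Casp8, for a caspase that also takes part in lymphocyte NF-kB signalling, had the largest response of the list, −2.19 in Tilcara and −2.71 in wild type, followed in wild type by Prkcb, Btrc (−1.51 in Tilcara and −1.99 in wild type), for the ligase subunit that recognises phosphorylated IkB, and Birc2 (−1.43 in Tilcara and −1.44 in wild type), for an inhibitor-of-apoptosis ligase that restrains NIK. Malt1 differed by 0.33 in Tilcara and 0.30 in wild type, and Bcl10 by 0.42 in Tilcara and 0.12 in wild type. Ikbkg, for the IKK scaffold NEMO, differed by −0.34 in Tilcara and −0.09 in wild type, and none of these 3 was called. Chuk is not analysed here. The median difference between the responses of the 21 genes was 0.00, equal to that of all genes used.

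Other IkB-like proteins and cofactors gave 3 genes that rose and 4 that fell among 15 measured, near the shares of all genes used (22% rose and 22.8% fell). Bcl3, for an atypical nuclear IkB protein that works with p50 and p52 dimers, read 5.23 in stimulated and 6.73 in non-stimulated Tilcara cells, and 5.75 in stimulated and 6.92 in non-stimulated wild-type cells. It fell (limma, log2 change −1.33, SE 0.17, adjusted p = 0.00495), so that it moved opposite to Nfkbiz and Nfkbid in both genotypes. Pdlim2, for a nuclear ligase that ends p65 activity, differed by −2.30 in Tilcara and −2.42 in wild type. Nkrf, for a repressor of NF-kB target genes, differed by 1.56 in Tilcara and 1.60 in wild type. Ep300, for the p300 coactivator, differed by −1.22 in Tilcara and −1.49 in wild type. Pdlim2 and Ep300 were called as falling and Nkrf as rising. Tnip1, for a partner of the A20 feedback protein, was the 1 gene of this list with a response at least 1.5-fold below that of wild type, at −1.17 in Tilcara and −0.31 in wild type.

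Known NF-kB targets of B cells mostly rose with stimulation, and many had smaller responses in Tilcara. Of 28 measured targets 16 rose and 5 fell with stimulation in the limma fit, against 22% of all genes used that rose and 22.8% that fell. The Tilcara response was at least 1.5-fold below the wild-type response in 17 of 28 and at least 1.5-fold above it in 2, against 8.05% and 8.76% of all genes used, and the median difference was −0.66. This list was chosen with earlier results of these data known and includes genes whose genotype difference was known. Its counts and median therefore describe the listed genes and are no independent support. Of the 28, 3 had a signal under the floor of 3.83 in at least 1 array, namely the cytokine gene Il10, the chemokine gene Ccl22 and Tnfsf4, for OX40 ligand, and 2 of these are among the 17, so the sizes of their differences are uncertain and are not ranked. Il10 read 6.14 in stimulated and 3.90 in non-stimulated Tilcara cells, and 9.52 in stimulated and 3.31 in non-stimulated wild-type cells. Ccl22 was above the floor in stimulated wild-type cells alone, at 6.29, against 3.77 in stimulated Tilcara cells. Among the targets above the floor in all 4 arrays, the adhesion gene Icam1 had the largest difference between responses (−2.03). Icam1 read 5.84 in stimulated and 5.95 in non-stimulated Tilcara cells, and 7.63 in stimulated and 5.70 in non-stimulated wild-type cells. Tnfsf4 ran the other way, at 7.59 in stimulated Tilcara and 4.80 in stimulated wild type, and below the floor in both non-stimulated arrays. Across genes used with a promoter window, the median difference between responses was −0.02 for the 1175 with a kB match and 0.00 for the 8563 without. The Tilcara response was at least 1.5-fold below that of wild type in 9.28% of those with a match and 7.53% of those without. This difference was not tested.

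**Figure D4:**
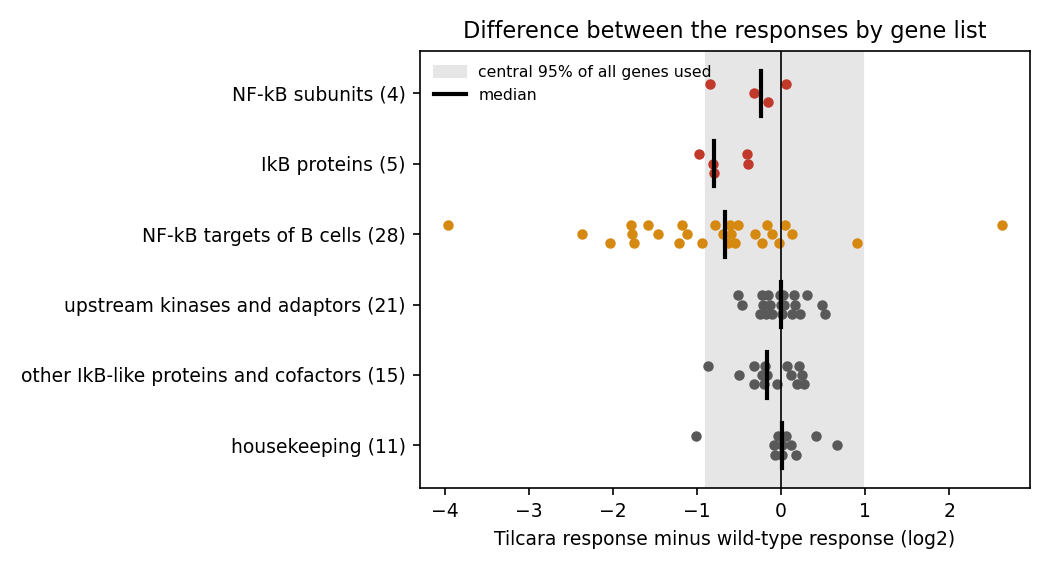
Tilcara response minus wild-type response (log2, horizontal axis) for each measured gene of 6 lists, with black bars at the medians and a grey band over the central 95% of all genes used. The medians are −0.24 for the subunits, −0.80 for the IkB genes, −0.66 for the targets, 0.00 for upstream genes, −0.17 for other IkB-like genes and cofactors and 0.01 for 11 housekeeping genes. The housekeeping gene Actb, at −1.01, lies outside the band. The lists were chosen with earlier results of these data known, and the targets include genes whose genotype difference was known.

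Markers of the sorted cells bear on all of these comparisons, since in bulk samples fewer cells of a type and less RNA per cell cannot be told apart. The 7 measured B cell markers of 8 averaged 7.72 in stimulated and 10.4 in non-stimulated Tilcara cells, and 7.41 in stimulated and 10.5 in non-stimulated wild-type cells, on the log2 scale. By mean log2 signal, neutrophil, T cell and macrophage lists were highest in the non-stimulated wild-type array. There the 4 measured neutrophil genes of 8 averaged 6.06, the 6 measured T cell genes of 9 averaged 4.44 and the 5 measured macrophage genes of 7 averaged 4.93. In the other 3 arrays the neutrophil list averaged 3.12 to 3.88 and the T cell list 3.34 to 3.55, at or near the floor. The neutrophil mean of 6.06 rests on S100a8 (9.0) and S100a9 (7.61), with Mpo (3.60) and Elane (4.03) near the floor. Measured genes are those whose highest signal reached the floor. S100a8, Elane, Cd3e, Cd3g, Cd4, Cd8b1, Lyz2, Adgre1 and Fcgr1 passed through the non-stimulated wild-type array alone, so its high means are in part built in. All 8 neutrophil genes had a probe set, and those not measured stayed below the floor in every array. Between the stimulated arrays, where the genotypes differed in the IkB genes, some single markers differed by as much or more. Among B cell markers, Cd79b read 8.57 in Tilcara and 6.96 in wild type, 3.05-fold higher in Tilcara, and the differences were 0.81 for Cd79a, 0.63 for Ptprc, which encodes CD45, and −0.63 for Blnk. Pax5 differed by −0.27, and Cd22 (0.05) and Ms4a1 (0.00) differed little. The T cell marker Thy1 read 3.84 in Tilcara and 5.01 in wild type, while the T cell list averaged 3.34 in Tilcara and 3.38 in wild type. The neutrophil list averaged 3.12 in Tilcara and 3.51 in wild type. Macrophage genes averaged 4.04 in stimulated and 3.98 in non-stimulated Tilcara cells, and 4.15 in stimulated wild-type cells. Of these genes Lyz2, Adgre1 and Fcgr1 were highest in non-stimulated wild type, at 5.99, 4.70 and 3.92. Cd68 and Csf1r were highest in stimulated Tilcara cells, at 7.44 and 3.94. Summed on the linear scale, the list read 213 in stimulated Tilcara and 198 in non-stimulated wild type. The 6 measured NK cell genes of 7 averaged 3.89 in stimulated and 5.38 in non-stimulated Tilcara cells, and 3.83 in stimulated and 5.24 in non-stimulated wild-type cells. The 3 measured dendritic cell genes of 5 averaged 2.94 in stimulated and 5.07 in non-stimulated Tilcara cells, and 3.18 in stimulated and 3.86 in non-stimulated wild-type cells. The non-stimulated difference of that list came from Klk1, at 6.41 in Tilcara and 2.75 in wild type, with Siglech (0.12) and Itgax (−0.14) differing little. The part of other cells, and of these marker differences, in the NF-kB results was not tested.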

How the data were processed

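B lymphocytes of 4 groups were measured on 1 Affymetrix array each. The authors deposited log2 signals of 41345 probe sets. These came from RMA (background correction, quantile normalization and probe summary), per the submitters' processing notes; its version and settings are not stated there. Quantile normalization forces like distributions on the arrays and so hides a change in total RNA per cell. Array medians lay between 3.73 and 3.79.

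Symbols were those of the platform annotation, with 1 symbol for 23521 probe sets, several for 1814 and none for 16010. The probe set with the highest mean stood for its gene, and genes whose highest value reached 3.83 were used, 12456 in all. Differences of log2 values between single arrays carry no test, and a size of 2-fold counts as called. Limma 3.58.1 (R 4.3.3) fitted both factors, stimulation and genotype, with p-values adjusted by Benjamini-Hochberg over all genes and a threshold of 0.05. It has 1 residual degree of freedom per gene. Limma also borrows variance from all genes (3.46 prior degrees of freedom), so a gene's error is not its own spread alone. The p-values measure no spread between replicates of a group and none beyond these samples. The fit was tested on simulated data in which stimulation acted alike in both genotypes. That test therefore does not bear on responses that differ by genotype. "Rose" and "fell" are limma's calls. The number of arrays limits the precision.

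The members and all gene lists were chosen with earlier results of these data known, and the listed NF-kB targets include genes whose genotype difference was known. Named list genes were those with the largest differences of at least 1 (up to 4 per list and comparison) and fixed pathway genes, and Tnip1 and the single marker genes were named after their values were seen. Alternatives were median centring, cyclic loess, centring on 11 housekeeping genes, the mean over probe sets, no filter, a size of 1.5-fold or 3-fold, an intensity trend in limma and an adjusted p of 0.1. Promoter sequences are RefSeq's (GRCm38.p6).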

Additional observations from a re-analysis of the deposited data

Results flagged for a closer look

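For 4 of the 9 genes the stimulated signal lay below the non-stimulated one in Tilcara and above it in wild type, a pattern seen in 8.41% of all genes used. With 1 array per state this difference between the genotypes was not tested. The Tilcara response minus the wild-type response was −0.98 for Nfkbia, −0.85 for Nfkb2, −0.32 for Relb and −0.15 for Rela. For Rela and Relb both responses were under 0.2 in size, and the sign of the wild-type response of Rela changed under cyclic loess.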

How the results depend on the processing

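In Tilcara 1 gene passed 2-fold with stimulation, 3 passed 1.5-fold and 0 passed 3-fold, and at 2-fold the count was 0 after cyclic loess and 2 with housekeeping centring. In wild type 4 genes passed 2-fold, 5 passed 1.5-fold and 0 passed 3-fold, and at 2-fold the count was 3 after cyclic loess, without Nfkbie, and 5 with housekeeping centring, with Rel. Between the stimulated arrays no gene passed 2-fold, 3 passed 1.5-fold, and 1, Nfkbia, passed 2-fold with housekeeping centring. For the difference between responses no gene passed 2-fold, 4 passed 1.5-fold, and 1, again Nfkbia, passed 2-fold with median centring and with housekeeping centring. Limma's 5 stimulation calls became 3 without the filter on low signals, where 22180 genes were tested. The cause of the shifts under the scalings was not tested. Housekeeping centring raised the median of all genes by 0.12 in the Tilcara response and 0.14 in the wild-type response. The housekeeping genes were themselves not all level. Of the 11, 2 rose and 3 fell with stimulation in limma, against 22% and 22.8% of all genes used. Actb differed by −1.52 in Tilcara and −0.50 in wild type. Of all genes at least 2-fold apart, 39.3% were higher in Tilcara without stimulation (50% with median centring, 29.0% with housekeeping centring) and 56.1% with stimulation (40.8% with housekeeping centring). Limma's stimulation term compares the states within each genotype, since genotype is the other factor of the fit. With 1 array per group there is no replicate number to pair by and no replicate to leave out. Genes near the signal floor have no reliable fold.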
